A study of Homo sapiens with 14 samples.

Results

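The transcriptome of EOL-1 cells given an sgRNA against EZH2 was compared, gene by gene, with that of EOL-1 cells labelled sgEV. These are 4 of the 14 libraries of the series, chosen by their labels and not by any measured value: 2 labelled sgEZH2 and 2 labelled sgEV. EOL-1 is a human cell line from an acute eosinophilic leukaemia and is known for the FIP1L1-PDGFRA fusion. All 4 libraries were labelled as from cells given doxycycline at 1 µg/ml for 4 days, in RPMI medium with serum, so the sgEV cells carry the drug as well. The column names of the count table give a single guide, sg1, for EZH2. The sources used here do not state whether the cells were a pool or a clone, or how many of them carried an edited allele. The series also holds MV4;11 cells, a myelomonocytic leukaemia line with a KMT2A-AFF1 fusion, in which EZH2 was depleted with a short hairpin (2 shEZH2 libraries) beside a control labelled EV (2 libraries), under the same doxycycline treatment.

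EZH2 is the catalytic subunit of Polycomb repressive complex 2 (PRC2), which methylates lysine 27 of histone H3, a mark found over genes that are kept silent. SUZ12 and EED hold the complex together, RBBP4 and RBBP7 bind histones, and EZH1 is the alternative methyltransferase. KDM6A and KDM6B remove the mark. In blood cells PRC2 is known for holding lineage and developmental genes off in stem and progenitor cells, and the series' title adds a role of EZH2 with cMyc and p300 in gene activation. The question put by the comparison was which transcripts move, and in which direction, when EZH2 is lowered in a second leukaemia line.

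Levels are given in CPM, estimated counts scaled to a common library total with edgeR's TMM factors, for each of the 2 libraries of a group (n = 2). A log2 fold change is that of sgEZH2 over sgEV and stands as value ± SE. A gene was called higher or lower where the adjusted p of edgeR's quasi-likelihood test over all genes was under 0.05, and "rose" and "fell" are used for called genes only. Library totals were 26823463 and 24574136 counts in sgEZH2 and 27139094 and 30256833 in sgEV. The spread between libraries was small (biological coefficient of variation 0.0257), and log2 differences near 0.15 passed the test in well-expressed genes. It was wider in sgEZH2: the chi-square of the counts between its 2 libraries was 3.12 per degree of freedom, against 1.74 in sgEV. Genes of the mitochondrial genome took 1.14% of the counts in each sgEZH2 library, against 1.06% and 1.05% in sgEV. The labels do not say whether the 2 libraries of a group had a culture each, and the p-values cover the spread between libraries alone, part or all of which may be technical.

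The label of the line was checked against its markers. PDGFRA, part of the known fusion, stood at 60.4 and 60.9 CPM in sgEZH2, against 61.8 and 62.3 CPM in sgEV, and FIP1L1 at 52.5 and 49.1 CPM in sgEZH2, against 56 and 54.1 CPM in sgEV, with no call in either. The myeloid antigen CD33 stood at 71.1 and 74.5 CPM in sgEZH2, against 64 and 64.6 CPM in sgEV. The granule proteins RNASE2 and RNASE3 and the receptors CSF2RA, CSF2RB and IL3RA, which eosinophils share with other myeloid cells, were all present. Values of EPX, PRG2, CLC, IL5RA, CCR3 and SIGLEC8, the genes that would separate eosinophils from other granulocytes, are not reported here. Markers of other lineages were few in the table: 2 of 18 listed T and NK cell genes had a row, 4 of 12 B cell genes, 3 of 21 erythroid and megakaryocyte genes and 1 of 14 epithelial and fibroblast genes.

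EZH2 itself stood at 27.8 and 26.1 CPM in sgEZH2, against 70.7 and 70.4 CPM in sgEV. Both sgEZH2 libraries lay far below both sgEV libraries, at 38.3% of the sgEV level (log2 fold change -1.39 ± 0.05, adjusted p = 3.2e-13). Since a guide acts on the gene and not on its RNA, how much EZH2 protein was left cannot be read from the transcript. MYC, the partner named in the title, had 655 and 660.2 CPM in sgEZH2 and 673 and 680.1 CPM in sgEV and did not pass the test (log2 fold change -0.04 ± 0.03, adjusted p = 0.35).

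Those of the other PRC2 genes that passed the test all fell, most of them by little. Of 14 genes for PRC2 subunits and H3K27 demethylases, all tested, 8 fell (EZH2 among them) and 0 rose, with a median log2 fold change of -0.16. Over all genes tested, 11.8% fell, 15.1% rose and the median was 0.005. KDM6B, an inducible demethylase of the mark that EZH2 makes, stood at 5.49 and 5.67 CPM in sgEZH2, against 8.92 and 8.51 CPM in sgEV (log2 fold change -0.64 ± 0.11, adjusted p = 2.6e-04). SUZ12 had 132 and 127 CPM in sgEZH2, against 147 and 149 CPM in sgEV (log2 fold change -0.19 ± 0.04, adjusted p = 6.9e-04), and the accessory subunit PHF19 fell by 0.20 ± 0.04. EZH1 did not pass the test, with 11.2 and 10.4 CPM in sgEZH2 and 11.6 and 12 CPM in sgEV (log2 fold change -0.13 ± 0.09, adjusted p = 0.31), nor did EED (-0.04 ± 0.06), JARID2 (0.13 ± 0.06), PHF1 (-0.19 ± 0.08), MTF2 (-0.10 ± 0.05) or KDM6A (-0.03 ± 0.07). The remaining 4 falls were small. The call of RBBP4 (-0.16 ± 0.03) was lost without sgEV library 1 (adjusted p = 0.056). The call of RBBP7 (-0.11 ± 0.04) was lost with DESeq2 (adjusted p = 0.13) and without sgEV library 2 (adjusted p = 0.41). The call of C17orf96, a PRC2 cofactor, (-0.16 ± 0.05) was lost with DESeq2 (adjusted p = 0.28) and without sgEV library 2 (adjusted p = 0.29). The call of AEBP2 (-0.17 ± 0.06) was lost with DESeq2 (adjusted p = 0.37), with limma on the authors' log2 values (adjusted p = 0.054), without sgEV library 1 (adjusted p = 0.055), without sgEV library 2 (adjusted p = 0.33) and without sgEZH2 library 2 (adjusted p = 0.11).

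Across the table, 13890 of 15031 rows passed the filter on low counts, 2099 genes (15.1%) were called higher and 1639 (11.8%) lower. The sizes were not alike. Rises of at least 2-fold numbered 466 (3.35% of genes tested), against 52 falls of that size (0.374%), so 90.0% of the calls past 2-fold were rises. At 4-fold the counts were 173 and 13. The median rise was 0.40 and the median fall -0.22 on the log2 scale. DESeq2 called 998 genes higher and 646 lower. Without sgEV library 1 the count of falls was 1061, and without sgEV library 2 it was 1020. At an unadjusted p under 0.05, 5094 genes passed in either direction.

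The balance of rises and falls differed with the level of the gene. Among the 725 genes that averaged under 0.5 CPM over the 4 libraries, 10.8% rose and 2.2% fell. Among the 2263 genes between 1 and 5 CPM, 13.2% rose and 3.3% fell, and 6.3% rose by at least 2-fold. Among the 1915 genes at 100 CPM or more, 17.9% rose and 21.6% fell, with 12 rises and 0 falls of at least 2-fold. Small falls were thus spread over abundant transcripts, and the large rises lay mostly in rare ones. Precision also differs with level: the rarest genes need large changes to pass the test.

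**Figure D1:**
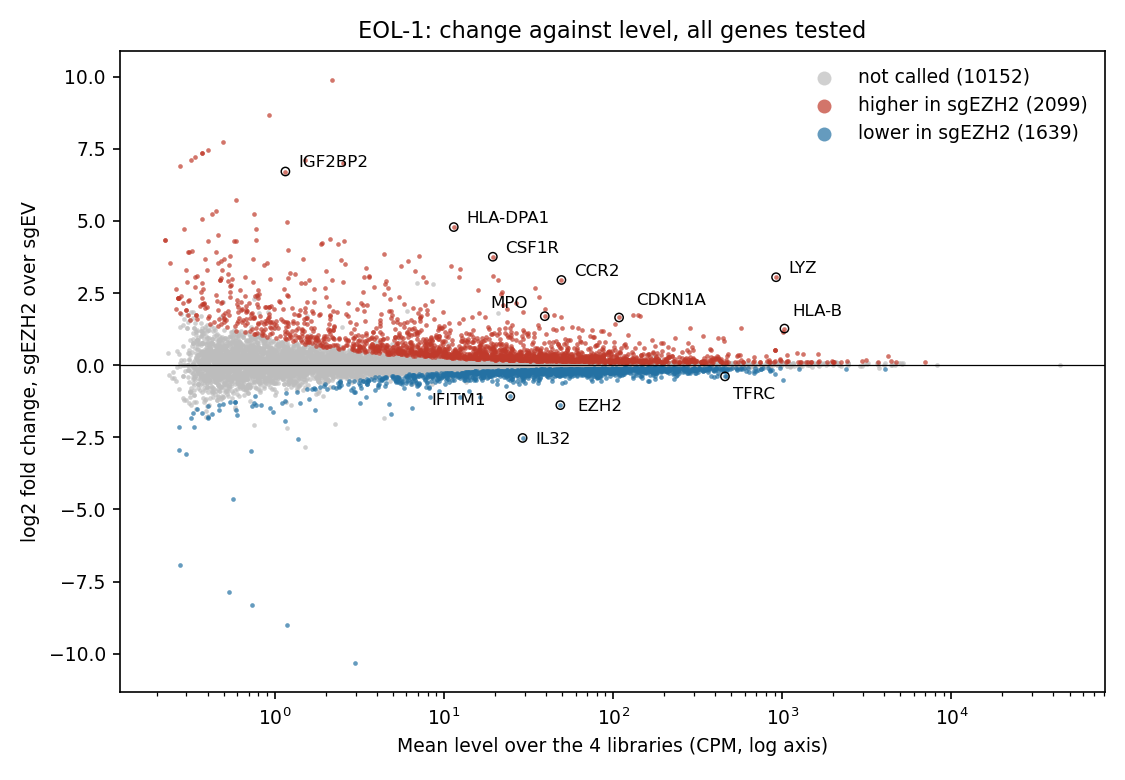
Each point is 1 of the 13890 genes tested, with its mean level over the 4 libraries in CPM (log axis) and its log2 fold change of sgEZH2 over sgEV. Red points were called higher (2099), blue points lower (1639) and grey points neither. Named genes are circled. The red cloud reaches much farther from 0 than the blue one, LYZ and HLA-B stand out among abundant genes, and IL32 and EZH2 lie at the bottom of the well-expressed genes. Points past 6.5 in either direction have at most 2 counts in 1 of the groups, and their fitted values are no measured folds.

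**Figure D2:**
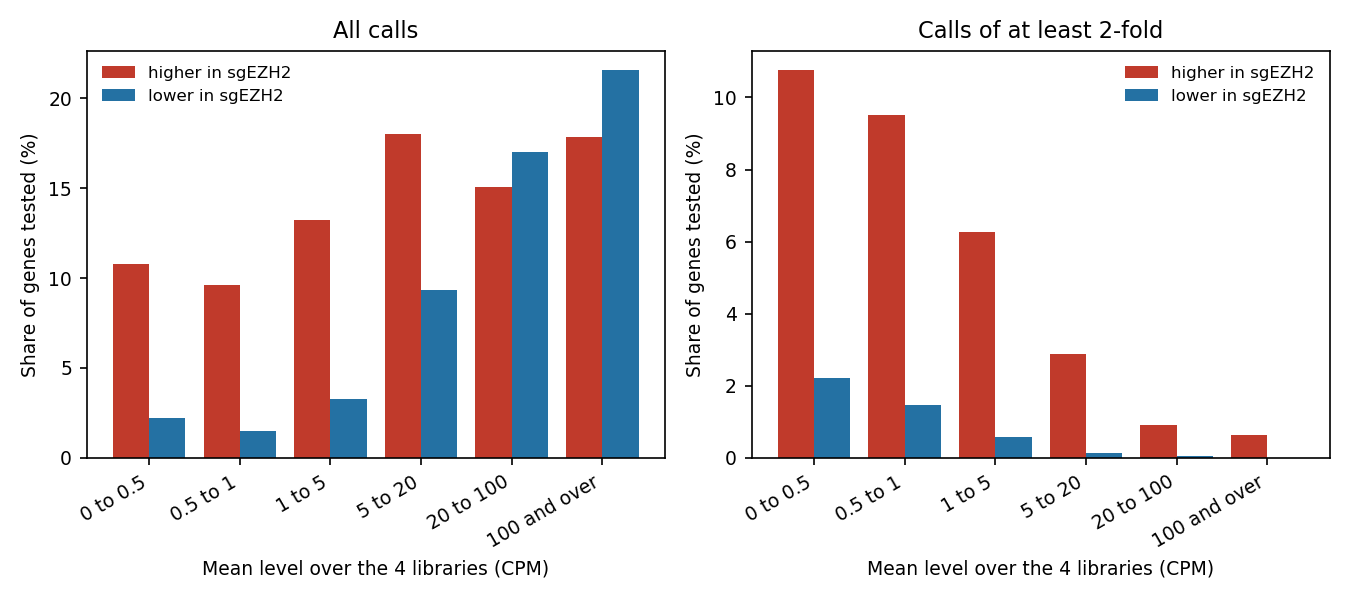
Bars give the share of genes tested (%) that were called higher (red) or lower (blue) in sgEZH2, in 6 classes of mean level in CPM. The left panel holds all calls and the right panel those of at least 2-fold. Red exceeds blue below 20 CPM on the left (13.2% and 3.3% between 1 and 5 CPM), and in every class on the right.

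Genes that were nearly silent in sgEV cells headed the rises. UBE2E2, a ubiquitin-conjugating enzyme, had 152 counts over both sgEZH2 libraries, against 1 over both sgEV libraries, a depth-scaled ratio of 173 with a 95% counting interval of 30.5 to 6866. PTPN13, a tyrosine phosphatase, had 256 counts over both sgEZH2 libraries, against 2 over both sgEV libraries, a ratio of 145 with a 95% counting interval of 39.9 to 1207. IGF2BP2, an mRNA-binding protein of fetal and stem cells, had 116 counts over both sgEZH2 libraries, against 1 over both sgEV libraries, a ratio of 132 with a 95% counting interval of 23.2 to 5250.4. These intervals cover counting error only. In each case both sgEZH2 libraries lay above both sgEV libraries, as the rule for naming genes by size required. The groups did not overlap, in either direction, in 8626 of the 13890 genes tested and in all 3738 called. A further 25 rows were at 0 in both sgEV libraries with 20 or more counts in sgEZH2, and 16 the other way round. One of the 25 was GNG11, a G protein gamma subunit named after its values were seen, at 0.934 and 1.03 CPM in sgEZH2, against 0 and 0 CPM in sgEV. With sgEV taken at its floor of 3 counts over both libraries it was at least 18.9-fold higher.

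The next genes had more than 3 counts over both sgEV libraries. The growth factor IGF1 stood at 2.20 and 2.40 CPM in sgEZH2, against 0.110 and 0.0327 CPM in sgEV (log2 fold change 4.96 ± 0.47, adjusted p = 2.0e-07). Its sgEV level rests on 4 counts over both libraries, against 117 in sgEZH2, so its fold is loosely measured. HLA-DPA1, a chain of the class II antigen-presenting molecule HLA-DP, stood at 21.7 and 22.4 CPM in sgEZH2, against 0.804 and 0.786 CPM in sgEV (log2 fold change 4.79 ± 0.13, adjusted p = 4.5e-15). CSF1R, the receptor for macrophage colony-stimulating factor, stood at 36.9 and 35.6 CPM in sgEZH2, against 2.27 and 3.05 CPM in sgEV (log2 fold change 3.76 ± 0.10, adjusted p = 3.7e-15). SPRED1, an inhibitor of Ras-MAPK signalling, stood at 4.07 and 3.18 CPM in sgEZH2, against 0.256 and 0.131 CPM in sgEV (4.22 ± 0.34). On the authors' log2 values, limma gave smaller changes, 2.01 for HLA-DPA1, 2.11 for CSF1R and 0.77 for IGF1. The other rises of this size came from genes of varied function. They were the ubiquitin ligase NEDD4 (4.38 ± 0.32), the desmosomal cadherin DSC2 (4.30 ± 0.29), the myeloid lectin CLEC5A (4.19 ± 0.33), the paraoxonase PON2 (4.18 ± 0.29) and the orphan receptor GPR63 (3.85 ± 0.19). MYBPH, a myosin-binding protein, rose by 3.79 ± 0.18, and MNDA, a nuclear protein of myeloid cells, by 3.63 ± 0.30. NCF1B (3.98 ± 0.41) is a near-identical copy of NCF1, and reads of the 2 cannot be told apart with confidence.

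Ranked by p instead of size, the rises were led by abundant genes with tight replicates. LYZ, the lysozyme of monocytes and granulocytes, stood at 1626 and 1654 CPM in sgEZH2, against 202 and 195 CPM in sgEV (log2 fold change 3.05 ± 0.03, adjusted p = 1.7e-20). CCR2, the chemokine receptor of inflammatory monocytes, stood at 87.2 and 88 CPM in sgEZH2, against 11.1 and 11.5 CPM in sgEV (log2 fold change 2.95 ± 0.06, adjusted p = 5.2e-17). FGL2, a fibrinogen-like protein of macrophages, had 204 and 202 CPM in sgEZH2, against 60.2 and 60.0 CPM in sgEV (1.76 ± 0.04). SEL1L3 stood at 222 and 212 CPM in sgEZH2, against 64.8 and 66.4 CPM in sgEV (1.72 ± 0.04). TIFAB, an inhibitor of TRAF6 signalling in myeloid cells, had 61.7 and 61 CPM in sgEZH2, against 12.5 and 11.2 CPM in sgEV (2.38 ± 0.06). CD36, a scavenger receptor, had 59.2 and 60.4 CPM in sgEZH2, against 8.92 and 9.56 CPM in sgEV (2.69 ± 0.06). CDKN1A, the cyclin-dependent kinase inhibitor p21, had 165 and 164 CPM in sgEZH2, against 51.5 and 53.2 CPM in sgEV (1.65 ± 0.04). SRGN, the proteoglycan that packs granule contents, had 398 and 410.0 CPM in sgEZH2, against 167 and 166 CPM in sgEV (1.28 ± 0.03). In none of these 8 genes did a sgEZH2 library come near a sgEV library. HLA-DRA and HLA-DRB1 complete the 10.

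**Figure D3:**
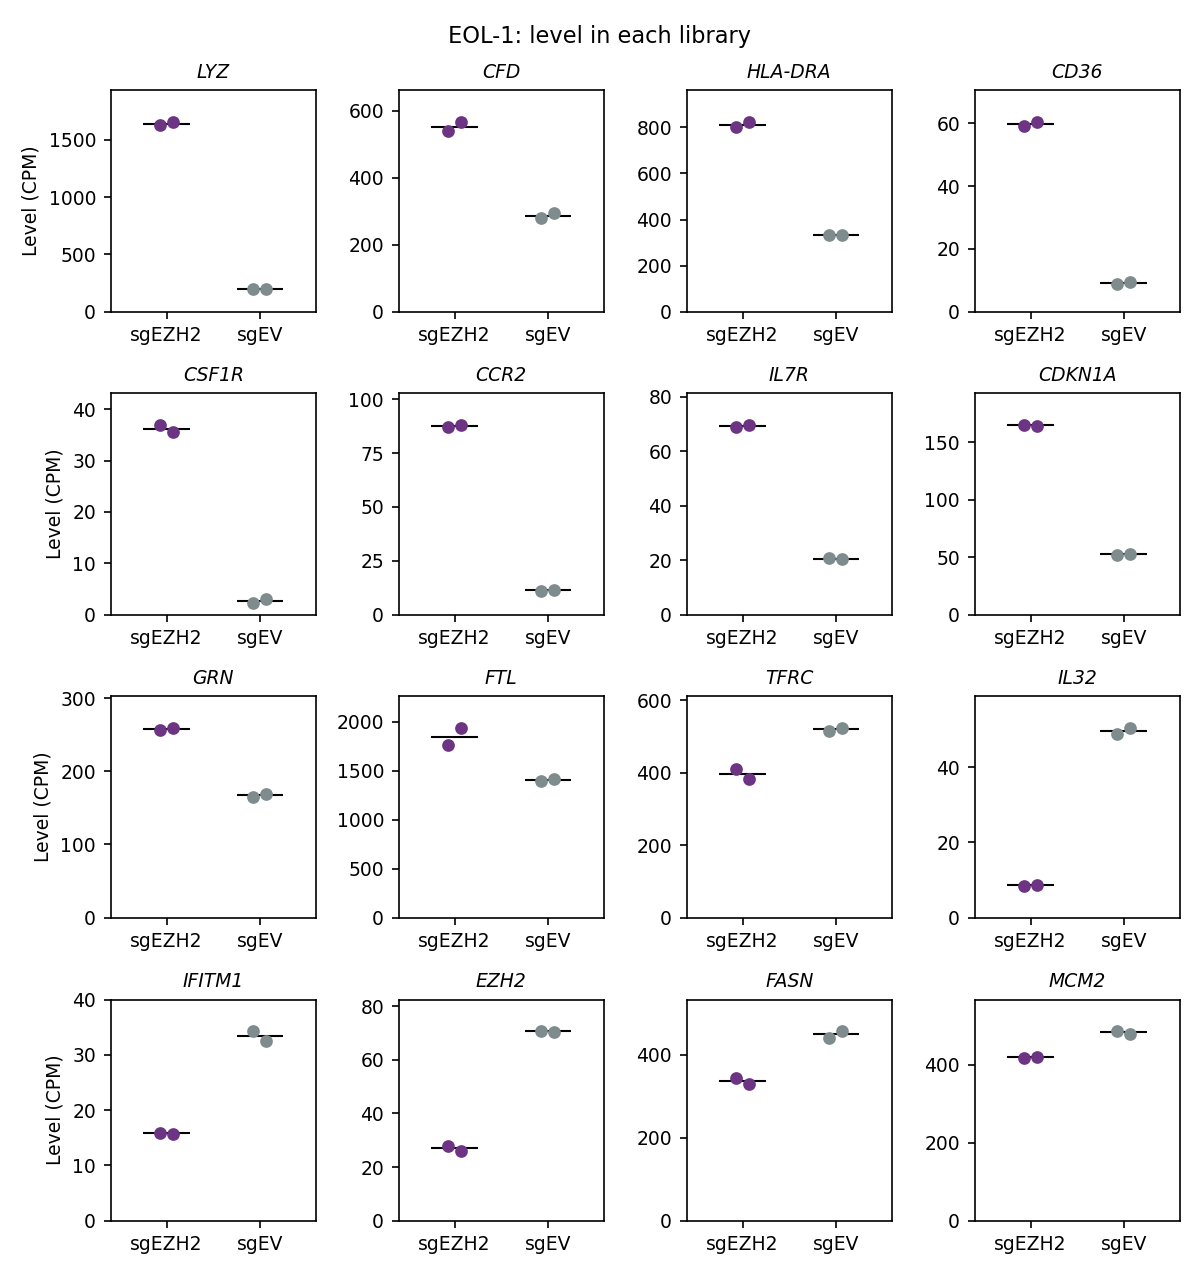
Each panel gives 1 gene's level in CPM, from 0, with a point for each library (sgEZH2 on the left, sgEV on the right) and a line at the group mean. The 10 panels from LYZ to FTL show rises and the 6 from TFRC to MCM2 show falls. The 2 libraries of a group nearly coincide in most panels, and FTL and TFRC show the widest gap between the 2 sgEZH2 libraries.

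Large falls were few, and only 2 reached 4-fold among the 15 genes named by size. SLITRK5, a transmembrane protein known from neurons, stood at 0.448 and 0.331 CPM in sgEZH2, against 2.49 and 2.19 CPM in sgEV (log2 fold change -2.56 ± 0.32, adjusted p = 6.7e-06). IL32, a proinflammatory cytokine, stood at 8.52 and 8.77 CPM in sgEZH2, against 48.9 and 50.4 CPM in sgEV (log2 fold change -2.52 ± 0.07, adjusted p = 3.6e-15), and its libraries within each group differed by under 2 CPM. ARAP2, a GTPase-activating protein for Arf6, had 2.24 and 2.32 CPM in sgEZH2, against 7.57 and 7.27 CPM in sgEV (-1.70 ± 0.14). Other falls of at least 2-fold were the annexin A2 receptor ANXA2R (-1.35 ± 0.15), the phosphatase regulator PHACTR3 (-1.32 ± 0.18), the G protein gamma subunit GNG4 (-1.12 ± 0.17), the microtubule-binding protein MAP7 (-1.11 ± 0.09), the scaffold HOMER2 (-1.09 ± 0.13) and OSR2. OSR2, a zinc finger factor of limb and palate development, had 9.94 and 10.8 CPM in sgEZH2, against 22.1 and 22.3 CPM in sgEV (-1.10 ± 0.08). KANK2 fell by 0.99 ± 0.12. The call of CXADR, the coxsackievirus and adenovirus receptor, (-0.92 ± 0.20) was lost with DESeq2 (adjusted p = 0.068). The read-through rows TMEM110-MUSTN1 (-1.56 ± 0.38) and CHURC1-FNTB (-1.30 ± 0.40) share sequence with their parent genes. The second was lost with DESeq2 (adjusted p = 0.12), with limma on the authors' log2 values (adjusted p = 0.12), without sgEV library 1 (adjusted p = 0.47), without sgEZH2 library 1 (adjusted p = 0.2) and without sgEZH2 library 2 (adjusted p = 0.14), and its value was -0.55 without sgEV library 1. The first moved to -2.65 without sgEZH2 library 1 and to -0.99 without sgEZH2 library 2.

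Falls with the smallest p included several abundant genes with modest changes. GPT2, the mitochondrial alanine transaminase, had 133 and 129.6 CPM in sgEZH2, against 194 and 192 CPM in sgEV (log2 fold change -0.55 ± 0.03, adjusted p = 7.9e-10). SRRM2, a scaffold of the splicing machinery, had 136 and 124 CPM in sgEZH2, against 190.1 and 188 CPM in sgEV (-0.54 ± 0.04). FNBP1, which shapes membranes during endocytosis, had 151 and 144 CPM in sgEZH2, against 209.7 and 206 CPM in sgEV (-0.49 ± 0.04), and the kelch-like protein KLHL4 fell by 0.53 ± 0.04. A clone-named row without a gene symbol, AC104534.3, was at 0 in both sgEZH2 libraries, against 6.43 and 5.44 CPM in sgEV, so with the same floor for sgEZH2 it was at least 100.3-fold lower.

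The gene groups are described next by their members' roles. The lists were chosen with earlier results of these data known, which may favour high shares of called members, so the shares are a description. The 34 lists named 1040 genes, of which 721 had a row and 703 were tested. A gene silent in sgEV could enter the test only if it was expressed in sgEZH2, so the counts describe the members that were measured and are set beside the shares over all genes (15.1% higher, 11.8% lower, median 0.005). Single genes that went against their list were named after their values were seen. Those named for this alone had no check of their calls with other processing. In RNA from whole cultures, a change in the number of cells of a kind and a change in RNA per cell cannot be told apart.

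**Figure D4:**
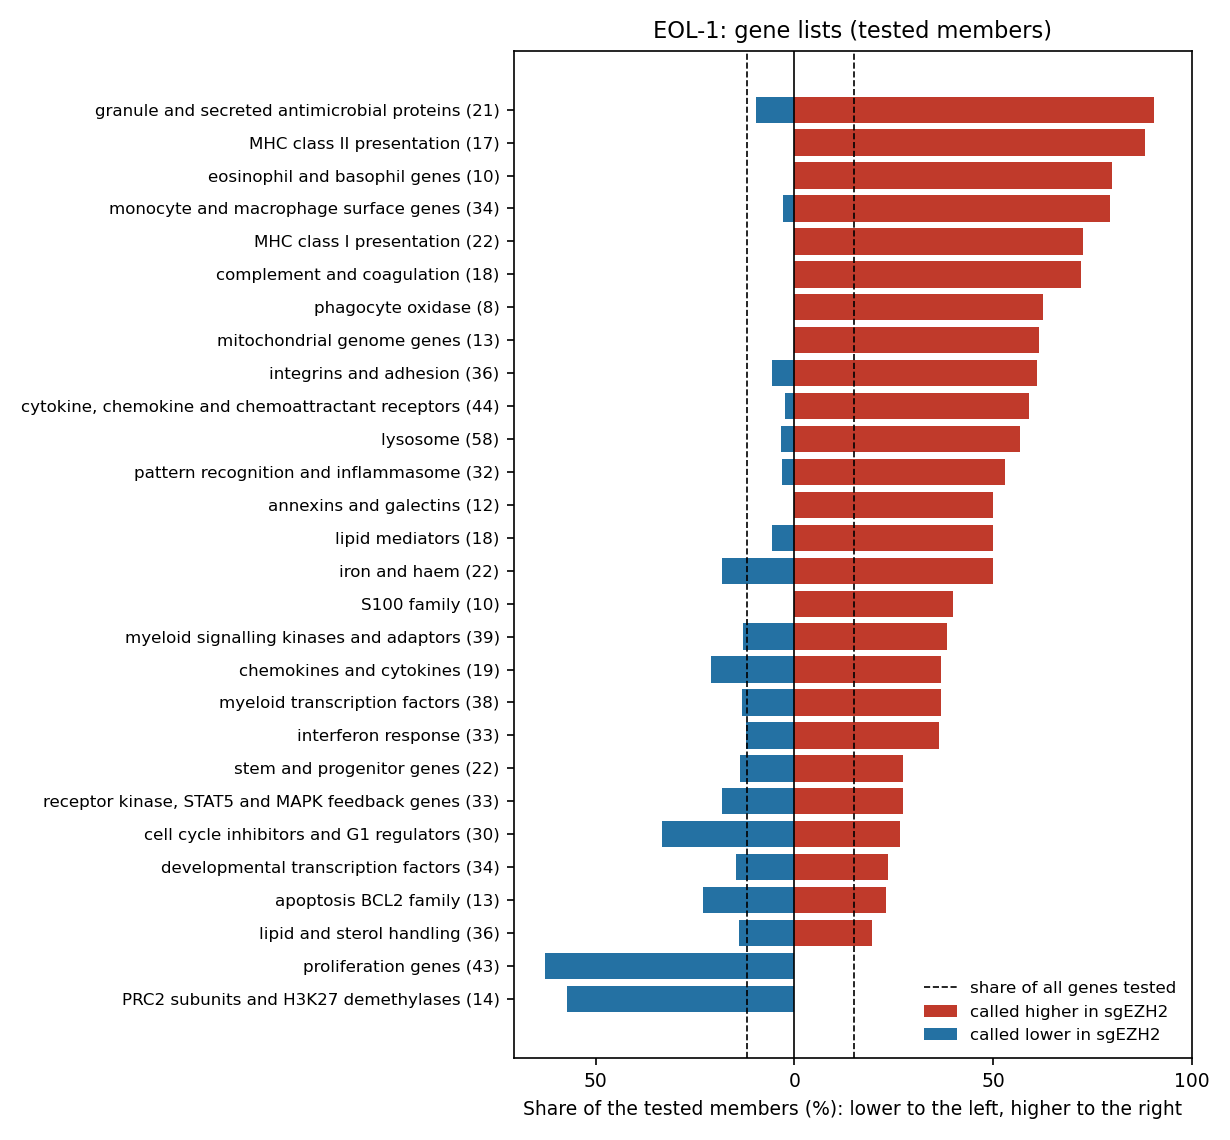
Bars give, for the 28 lists with at least 8 tested members (their number in brackets), the share of members called higher (red, to the right) and lower (blue, to the left) in sgEZH2. Dashed lines mark the shares over all genes tested, 15.1% and 11.8%. The lists were chosen with earlier results of these data known. The granule and MHC class II lists are at the top with 90.5% and 88.2% higher, and the proliferation and PRC2 lists at the bottom have no member higher.

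Of 38 tested myeloid transcription factors, 14 rose and 5 fell (median 0.18), and 3 rose by at least 2-fold, not all of which are named here. TFEC, a macrophage factor of the MiT family, stood at 37.7 and 35.6 CPM in sgEZH2, against 6.54 and 6.75 CPM in sgEV (log2 fold change 2.46 ± 0.08, adjusted p = 2.8e-14). The monocyte factor IRF8 had 446 and 439.9 CPM in sgEZH2, against 306 and 303 CPM in sgEV (0.54 ± 0.03), and CEBPA, the driver of granulocyte-monocyte commitment, had 402 and 392 CPM in sgEZH2, against 308 and 325 CPM in sgEV (0.33 ± 0.03). SPI1, which encodes PU.1, had 155 and 166 CPM in sgEZH2, against 133 and 135 CPM in sgEV (0.26 ± 0.04). IRF5 rose by 0.58 ± 0.07 and IRF1 by 0.41 ± 0.05. The 5 that fell, named after their values were seen, were IKZF2 (-0.41 ± 0.06), EGR1 (-0.28 ± 0.09), KLF6 (-0.19 ± 0.05), RUNX1 (-0.15 ± 0.04) and IKZF1 (-0.13 ± 0.04). ZEB2 (0.07 ± 0.04), CEBPG (-0.03 ± 0.04) and BHLHE40 (0.00 ± 0.04) did not pass. Apart from TFEC, these well-expressed factors changed by less than 1.5-fold.

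Of 34 tested monocyte and macrophage surface genes, 27 rose and 1 fell (median 0.91), and 15 rose by at least 2-fold. CD36 and CSF1R had the smallest p of the list, with the values given above. MS4A6A, a membrane protein of macrophages, stood at 115 and 119.5 CPM in sgEZH2, against 52.7 and 49.7 CPM in sgEV (1.20 ± 0.04). LILRB4, an inhibitory leukocyte receptor, stood at 50.1 and 53.5 CPM in sgEZH2, against 20.7 and 18.9 CPM in sgEV (1.39 ± 0.06), and the lysosomal glycoprotein CD68 at 86.1 and 91.5 CPM in sgEZH2, against 59 and 57.3 CPM in sgEV (0.61 ± 0.05). The 1 fall, named for that, was SIRPA (-0.14 ± 0.04), the receptor for the don't-eat-me signal CD47. CLEC12A (0.15 ± 0.13), SIGLEC10 (-0.30 ± 0.14) and PILRA (0.62 ± 0.36) did not pass. All 4 tested members of the MS4A family rose: MS4A3 (3.07 ± 0.11), MS4A4A (1.89 ± 0.18), MS4A6A and MS4A7 (0.78 ± 0.17), the last of which was lost with DESeq2 (adjusted p = 0.096).

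Of 21 granule and secreted antimicrobial genes, 19 were called higher and 2 lower (median 1.28), with 11 rises of at least 2-fold. PRTN3, the granule protease proteinase 3, stood at 33.7 and 35.9 CPM in sgEZH2, against 4.02 and 4.13 CPM in sgEV (log2 fold change 3.09 ± 0.09, adjusted p = 5.4e-15). MPO, the peroxidase of azurophil granules, stood at 59.1 and 61.5 CPM in sgEZH2, against 18.3 and 18.9 CPM in sgEV (1.70 ± 0.06), and MS4A3, a marker of granulocyte-monocyte progenitors, at 22.4 and 21.2 CPM in sgEZH2, against 3.0 and 2.23 CPM in sgEV. CFD, a serine protease of the alternative complement pathway, had 539.5 and 566 CPM in sgEZH2, against 279 and 294 CPM in sgEV (0.95 ± 0.03). The summed level of the list was 3447 and 3561 CPM in sgEZH2, against 1109 and 1124 CPM in sgEV, and LYZ was the largest part of it in sgEZH2. The 2 that fell, named after their values were seen, were the matrix proteoglycan VCAN (-0.24 ± 0.07) and the cystatin CST7 (-0.39 ± 0.04).

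Of 10 tested eosinophil and basophil genes, 8 rose and 0 fell (median 0.58). Rises of at least 2-fold numbered 3, not all of which are named here. RNASE2, the eosinophil-derived neurotoxin, stood at 64.5 and 70.7 CPM in sgEZH2, against 35.6 and 35.6 CPM in sgEV (log2 fold change 0.92 ± 0.05, adjusted p = 2.1e-10). CSF2RA, the GM-CSF receptor alpha chain, stood at 15.5 and 18 CPM in sgEZH2, against 10.6 and 9.89 CPM in sgEV (0.71 ± 0.09), and IL3RA, the IL-3 receptor alpha chain, at 17.2 and 19.5 CPM in sgEZH2, against 14.2 and 12.8 CPM in sgEV (0.44 ± 0.08). The shared beta chain CSF2RB did not pass, with 17.8 and 18.4 CPM in sgEZH2 and 16.9 and 15.9 CPM in sgEV (0.15 ± 0.07), nor did EMR1 (-0.01 ± 0.23). FCER1A, the IgE receptor alpha chain, was at 0 in both sgEV libraries and at 0.859 and 0.620 CPM in sgEZH2, so with the floor of 3 counts for both sgEV libraries it was at least 14.4-fold higher. RNASE3, the eosinophil cationic protein, rose by 0.45 ± 0.11 and was lost with DESeq2 (adjusted p = 0.2) and without sgEV library 2 (adjusted p = 0.08). Catalase (CAT, 0.13 ± 0.03) was lost without sgEV library 1 (adjusted p = 0.092) and without sgEV library 2 (adjusted p = 0.11). Since 16 of the 26 listed genes had no row, the list says little about eosinophil identity.

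The phagocyte oxidase, which makes superoxide, showed a change mainly in 1 subunit. NCF1, the cytosolic organiser p47phox, stood at 7.77 and 8.40 CPM in sgEZH2, against 1.17 and 0.950 CPM in sgEV (log2 fold change 2.93 ± 0.17, adjusted p = 2.4e-10), with the reservation that it has near-identical copies. The proton channel HVCN1 stood at 9.97 and 9.06 CPM in sgEZH2, against 5.59 and 5.67 CPM in sgEV (0.76 ± 0.11). The membrane subunit CYBA (0.19 ± 0.04) rose slightly. The catalytic subunit CYBB had 120.4 and 114 CPM in sgEZH2, against 108 and 109.6 CPM in sgEV (log2 fold change 0.11 ± 0.04, adjusted p = 0.045), a call that was lost under 9 alternatives. Among these were leaving out sgEV library 1, sgEV library 2 or sgEZH2 library 1, and its value was 0.064 without sgEZH2 library 1. NCF4 (0.02 ± 0.04), RAC1 (-0.05 ± 0.03) and RAC2 (-0.01 ± 0.03) did not pass. In all, 5 of 8 rose and 0 fell (median 0.15).

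Among 32 tested genes of pattern recognition and the inflammasome, 17 were called higher and 1 lower (median 0.18). NAIP, a flagellin sensor of the NLRC4 inflammasome, stood at 45.3 and 47.2 CPM in sgEZH2, against 22.3 and 20.8 CPM in sgEV (log2 fold change 1.10 ± 0.06, adjusted p = 6.4e-11). TLR4, the lipopolysaccharide receptor, stood at 51.8 and 45.7 CPM in sgEZH2, against 28 and 29.7 CPM in sgEV (0.76 ± 0.06), TLR1 rose by 0.84 ± 0.09, and the muramyl dipeptide sensor NOD2 had 6.69 and 6.45 CPM in sgEZH2, against 2.05 and 1.77 CPM in sgEV (1.79 ± 0.16). NLRP3 rose by 0.32 ± 0.04. The single fall was TLR9 (-0.83 ± 0.24), the sensor of unmethylated DNA. The signalling components IRAK1 (0.01 ± 0.03), TMEM173 (0.00 ± 0.04) and IRAK3 (0.12 ± 0.05) did not pass.

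Of 44 receptors for cytokines, chemokines and chemoattractants, 26 were called higher and 1 lower, LTB4R (-0.20 ± 0.06), with a median of 0.30. IL7R, the interleukin-7 receptor, stood at 68.8 and 69.6 CPM in sgEZH2, against 20.7 and 20.5 CPM in sgEV (log2 fold change 1.75 ± 0.05, adjusted p = 1.4e-14). IL6R, the interleukin-6 receptor, stood at 106 and 104 CPM in sgEZH2, against 44.7 and 46.7 CPM in sgEV (1.20 ± 0.04), and PTAFR, the receptor for platelet-activating factor, at 69.4 and 72.5 CPM in sgEZH2, against 27.6 and 30.2 CPM in sgEV (1.29 ± 0.05). TGFBR2 had 45.4 and 45.3 CPM in sgEZH2, against 23.5 and 22.5 CPM in sgEV (0.98 ± 0.06). The TNF receptors TNFRSF1B (0.02 ± 0.03), TNFRSF1A (0.06 ± 0.04) and TNFRSF10B (0.01 ± 0.04) did not pass.

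The secreted ligands were mixed: 7 of 19 tested chemokines and cytokines rose and 4 fell (median 0.04). CXCL8, the neutrophil chemoattractant interleukin-8, stood at 7.21 and 8.77 CPM in sgEZH2, against 3.0 and 2.91 CPM in sgEV (log2 fold change 1.43 ± 0.14, adjusted p = 4.2e-07), and CCL23 at 2.39 and 2.81 CPM in sgEZH2, against 0.768 and 0.655 CPM in sgEV (1.87 ± 0.27). TNFSF13, which encodes APRIL, had 38 and 39.3 CPM in sgEZH2, against 26.4 and 27.3 CPM in sgEV (0.53 ± 0.06), and HBEGF, an EGF-like growth factor, rose by 0.73 ± 0.10. Against these stood IL32 and VEGFA, the angiogenic factor, which had 63.4 and 60.5 CPM in sgEZH2, against 86 and 87.2 CPM in sgEV (-0.48 ± 0.04). TNFSF14 (-0.52 ± 0.15) and LTB (-0.59 ± 0.09), named after their values were seen, also fell. TGFB1 (-0.07 ± 0.03), TNFSF13B (0.04 ± 0.04) and IL16 (0.39 ± 0.13) did not pass.

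Of 18 complement and coagulation genes, 13 were called higher and 0 lower (median 0.96), with 8 rises of at least 2-fold. CFP (properdin), which stabilises the alternative pathway convertase, stood at 7.32 and 8.35 CPM in sgEZH2, against 1.10 and 1.11 CPM in sgEV (log2 fold change 2.82 ± 0.17, adjusted p = 4.0e-10). F13A1, the factor XIII A chain of monocytes and platelets, stood at 12.3 and 10.6 CPM in sgEZH2, against 3.22 and 2.78 CPM in sgEV (1.94 ± 0.13), and thrombomodulin (THBD) at 42.8 and 39.8 CPM in sgEZH2, against 17.4 and 17.8 CPM in sgEV (1.23 ± 0.06). The complement inhibitor CD59 had 30.2 and 33.2 CPM in sgEZH2, against 17 and 15.5 CPM in sgEV (0.97 ± 0.07), and the protease PLAU rose by 0.32 ± 0.04. PLAUR, the receptor of PLAU, did not pass (-0.01 ± 0.06), nor did CD55 (0.19 ± 0.07) or tissue factor F3 (0.14 ± 0.09).

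Of 36 integrins and other adhesion genes, 22 were called higher and 2 lower (median 0.22). ITGB7, the beta chain of gut-homing integrins, stood at 79 and 83.8 CPM in sgEZH2, against 32.3 and 33.4 CPM in sgEV (log2 fold change 1.31 ± 0.05, adjusted p = 4.4e-13), and AMICA1, a junctional adhesion molecule of leukocytes, at 11.3 and 13.9 CPM in sgEZH2, against 3.18 and 3.44 CPM in sgEV (1.92 ± 0.13). ITGB2, the common chain of the leukocyte integrins, had 296 and 294 CPM in sgEZH2, against 210.3 and 224 CPM in sgEV (0.44 ± 0.03). The tetraspanins CD63 (0.63 ± 0.04) and CD82 (0.61 ± 0.05) and the adhesion molecule ICAM3 (0.65 ± 0.06) rose too. The 2 that fell were ICAM2 (-0.44 ± 0.10) and the integrin activator talin, TLN1 (-0.15 ± 0.03). The abundant members ITGA4 (0.01 ± 0.03), CD44 (0.08 ± 0.03) and SELPLG (-0.07 ± 0.04) did not pass.

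PU.1 and C/EBP factors are known to drive myeloid genes, and the start regions of the called genes were searched for their letters. RefSeq promoters (GRCh38.p14), from 250 bases before to 50 after the start, were found for 9592 of the genes tested. The 8 letters GAGGAAGT, on either strand, were taken for PU.1 and occurred in 2.54% of all 27305 promoters in the table and in 2.69% of those of genes tested. They occurred in 4.11% of 1557 promoters of genes that rose, in 7.69% (24 of 312) of those that rose by at least 2-fold, and in 3.04% of 1285 promoters of genes that fell. The 8 letters TTGCGCAA, taken for C/EBP, occurred in 0.128% of all promoters, in 0.219% of those of genes tested, in 0.385% of those that rose, in 0 of 312 of those that rose by at least 2-fold and in 0.311% of those that fell. A match is a description of these letters and not a bound site, and GAGGAAGT stands for other ETS factors as well as PU.1. The sets of promoters were not matched for level, and the large rises lay mostly in rare genes. Some of those could enter the test only through their level in sgEZH2. The 250 bases before the start are printed for 4 of the 24 genes, those with the smallest p whose match lies before the start, leaving out the HLA paralogs. They were chosen after their values were seen and show where the letters lie in genes described above (PRTN3 and ITGB7) or below (PLD4 and SATB1). Capitals mark GAGGAAGT or, where it is on the other strand, its complement ACTTCCTC, and each sequence runs 5′ to 3′ along the gene's own strand. PRTN3 is at chr19:840749-840998 (+), ITGB7 at chr12:53207252-53207501 (-), PLD4 at chr14:104924629-104924878 (+) and SATB1 at chr3:18445593-18445842 (-).
PRTN3: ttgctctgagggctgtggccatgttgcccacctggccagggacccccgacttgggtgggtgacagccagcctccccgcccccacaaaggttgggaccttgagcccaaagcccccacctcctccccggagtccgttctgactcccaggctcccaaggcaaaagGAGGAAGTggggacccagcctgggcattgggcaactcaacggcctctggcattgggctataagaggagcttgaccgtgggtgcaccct
ITGB7: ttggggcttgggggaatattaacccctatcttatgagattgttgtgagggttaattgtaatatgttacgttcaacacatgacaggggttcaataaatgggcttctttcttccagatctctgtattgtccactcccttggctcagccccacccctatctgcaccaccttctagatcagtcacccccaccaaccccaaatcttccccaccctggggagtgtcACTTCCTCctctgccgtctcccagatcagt
PLD4: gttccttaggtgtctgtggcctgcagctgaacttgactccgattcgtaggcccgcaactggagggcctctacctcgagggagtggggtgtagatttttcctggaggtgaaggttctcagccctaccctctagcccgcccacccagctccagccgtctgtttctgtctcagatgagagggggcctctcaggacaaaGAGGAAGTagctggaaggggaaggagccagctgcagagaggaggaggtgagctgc
SATB1: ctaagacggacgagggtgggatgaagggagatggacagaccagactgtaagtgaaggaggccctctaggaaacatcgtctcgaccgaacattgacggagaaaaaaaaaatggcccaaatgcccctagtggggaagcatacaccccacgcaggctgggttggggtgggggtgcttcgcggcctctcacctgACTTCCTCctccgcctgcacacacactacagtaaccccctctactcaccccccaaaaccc

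In PRTN3 the match begins 88 bases before the start, on the same strand, and in PLD4 it begins 55 bases before the start. In ITGB7 and SATB1 it lies on the other strand, 30 and 60 bases before the start. PLD4, an exonuclease of endosomes, stood at 165 and 167 CPM in sgEZH2, against 78.8 and 82.9 CPM in sgEV (log2 fold change 1.03 ± 0.04, adjusted p = 4.4e-13). SATB1, a chromatin organiser of lymphoid and progenitor cells, stood at 93.5 and 88.7 CPM in sgEZH2, against 38.2 and 40.1 CPM in sgEV (log2 fold change 1.22 ± 0.05, adjusted p = 7.7e-13).

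Of 39 myeloid kinases and adaptors, 15 rose and 5 fell (median 0.05). The protein kinase PRKCB stood at 74.2 and 70.7 CPM in sgEZH2, against 38.2 and 40.7 CPM in sgEV (log2 fold change 0.88 ± 0.05, adjusted p = 1.8e-10), and the PI3K regulatory subunit PIK3R5 at 73.7 and 73.5 CPM in sgEZH2, against 49.5 and 48.9 CPM in sgEV (0.58 ± 0.04). The tyrosine kinases LYN (0.39 ± 0.04) and SYK (0.44 ± 0.04), the adaptor SLA (0.58 ± 0.05) and the exchange factor RASGRP2 (0.44 ± 0.05) rose by smaller amounts. The 5 falls, named after their values were seen, were PTPN22 (-0.31 ± 0.11), SASH3 (-0.26 ± 0.04), PIK3CG (-0.15 ± 0.05), INPP5D (-0.13 ± 0.03) and PIK3CD (-0.11 ± 0.03). Their share of the list, 12.8%, was near the 11.8% over all genes tested. GRB2 (0.03 ± 0.03), PIK3AP1 (0.08 ± 0.03) and PTPN6 (0.02 ± 0.03) did not pass.

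Of 33 genes downstream of receptor kinases, STAT5 and MAPK, 9 were called higher and 6 lower (median 0.02). CCND2, the G1 cyclin D2, stood at 10.3 and 10.0 CPM in sgEZH2, against 0.768 and 1.08 CPM in sgEV (log2 fold change 3.44 ± 0.17, adjusted p = 1.8e-11). The phosphatase DUSP4, which acts on MAP kinases, stood at 26.2 and 25.1 CPM in sgEZH2, against 12.4 and 12 CPM in sgEV (1.08 ± 0.07), and SPRED1 rose as given above. PIM1, a kinase induced by STAT5, had 621 and 612 CPM in sgEZH2, against 741 and 743 CPM in sgEV (-0.27 ± 0.03), and the survival gene BCL2L1 had 31.6 and 32.7 CPM in sgEZH2, against 40.3 and 38.6 CPM in sgEV (-0.30 ± 0.05), both falls. The other falls, named after their values were seen, were ETV4 (-0.61 ± 0.12), FOS (-0.38 ± 0.07), ETV5 (-0.21 ± 0.05) and CCND3 (-0.11 ± 0.03). CISH, another STAT5 target, had 99.4 and 100.05 CPM in sgEZH2 and 104 and 104 CPM in sgEV and did not pass (-0.06 ± 0.04). STAT3 rose by 0.30 ± 0.04, and MCL1 (0.09 ± 0.04) did not pass.

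Of 58 lysosomal genes, 33 were called higher and 2 lower (median 0.18), and only 1 rose by 2-fold or more. Progranulin (GRN) stood at 256 and 259 CPM in sgEZH2, against 164 and 169 CPM in sgEV (log2 fold change 0.63 ± 0.03, adjusted p = 5.4e-11), prosaposin (PSAP) at 348 and 349 CPM in sgEZH2, against 244 and 239.9 CPM in sgEV (0.52 ± 0.03), and the protease cathepsin Z (CTSZ) at 138 and 147 CPM in sgEZH2, against 88.2 and 88.2 CPM in sgEV (0.69 ± 0.04). The nuclease DNASE2 (-0.51 ± 0.13) and the membrane protein SCARB2 (-0.17 ± 0.04) fell. The proteases and hydrolases CTSC (0.04 ± 0.03), RNASET2 (0.01 ± 0.03) and PPT1 (-0.02 ± 0.03) did not pass. The summed level of the list was 5153 and 5218 CPM in sgEZH2, against 4391 and 4415 CPM in sgEV.

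Among 18 tested genes of lipid mediators, 9 rose and 1 fell, LTB4R (median 0.14), and PTAFR had the smallest p. ALOX5AP, which presents arachidonic acid for leukotriene synthesis, stood at 83.7 and 88 CPM in sgEZH2, against 51.3 and 49.9 CPM in sgEV (0.76 ± 0.05), and the cyclooxygenase PTGS1 at 15.1 and 13 CPM in sgEZH2, against 6.80 and 7.47 CPM in sgEV (0.98 ± 0.10). The phospholipase PLCB2 (0.36 ± 0.06) and the leukotriene receptor CYSLTR1 (0.31 ± 0.05) rose. LTC4S, leukotriene C4 synthase, rose by 1.49 ± 0.33 and was lost with DESeq2 (adjusted p = 0.059). Among 36 genes of lipid and sterol handling, 7 rose and 5 fell (median 0.03). The falls included 2 lipogenic enzymes, fatty acid synthase FASN at 343 and 331 CPM in sgEZH2, against 441 and 457 CPM in sgEV (log2 fold change -0.41 ± 0.03, adjusted p = 1.9e-08) and the desaturase SCD at 297 and 282 CPM in sgEZH2, against 351 and 337 CPM in sgEV (-0.25 ± 0.03). ACACA (-0.30 ± 0.05), which supplies FASN with malonyl-CoA, SREBF1 (-0.30 ± 0.07), their transcriptional regulator, and MVK (-0.26 ± 0.09) also fell. The rises included the acyl-CoA synthetase ACSL1 (0.38 ± 0.04) and the fatty acid carrier FABP5 (0.29 ± 0.03).

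Among iron genes, the ferritin chains rose and the transferrin receptor fell. TFRC, the transferrin receptor for iron uptake, stood at 411 and 383 CPM in sgEZH2, against 517 and 523 CPM in sgEV (log2 fold change -0.39 ± 0.03, adjusted p = 9.5e-08). The ferritin light chain FTL stood at 1759 and 1935 CPM in sgEZH2, against 1397 and 1415 CPM in sgEV (0.39 ± 0.04). The heavy chain FTH1 stood at 417 and 450.4 CPM in sgEZH2, against 359.7 and 368 CPM in sgEV (0.25 ± 0.04). NCOA4, the ferritin receptor for autophagy, had 646 and 619 CPM in sgEZH2, against 499.5 and 489 CPM in sgEV (0.36 ± 0.03). STEAP3, an endosomal iron reductase, stood at 8.89 and 9.35 CPM in sgEZH2, against 1.64 and 1.90 CPM in sgEV (2.35 ± 0.14), and SLC40A1, the exporter ferroportin, at 3.03 and 3.47 CPM in sgEZH2, against 0.914 and 1.02 CPM in sgEV (1.74 ± 0.23). In the list, 11 of 22 rose and 4 fell (median 0.10). Besides TFRC, the iron importer SLC11A2 (-0.23 ± 0.06), the reductase CYBRD1 (-0.23 ± 0.06) and the haem exporter FLVCR1 (-0.37 ± 0.07), all named after their values were seen, fell. IREB2 (0.01 ± 0.04), CPOX (-0.07 ± 0.04) and FECH (-0.07 ± 0.05) did not pass. Ferritins have many pseudogenes, so part of their counts may be misplaced.

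Of 17 MHC class II genes, 15 were called higher and 0 lower (median 1.28). HLA-DRA stood at 799 and 823 CPM in sgEZH2, against 334 and 334 CPM in sgEV (log2 fold change 1.28 ± 0.03, adjusted p = 1.6e-15), and CD74, the invariant chain that guides class II molecules to endosomes, at 587 and 595 CPM in sgEZH2, against 308 and 303 CPM in sgEV (0.95 ± 0.03). HLA-DPB1 stood at 22.1 and 23.4 CPM in sgEZH2, against 2.01 and 2.46 CPM in sgEV (3.34 ± 0.11). HLA-DRB1 rose by 1.71 ± 0.04 and HLA-DRB5 by 1.95 ± 0.05. The regulators moved less: CIITA, the class II transactivator, had 21.6 and 21.2 CPM in sgEZH2, against 17 and 16.6 CPM in sgEV (0.35 ± 0.07), and RFXANK (-0.04 ± 0.05) and RFXAP (-0.16 ± 0.08) did not pass. Of 22 MHC class I genes, 16 were called higher and 0 lower (median 0.42). HLA-C had 1376 and 1417 CPM in sgEZH2, against 630.4 and 632 CPM in sgEV (1.15 ± 0.03), and HLA-B had 1397 and 1515 CPM in sgEZH2, against 604 and 605 CPM in sgEV (1.27 ± 0.04). HLA-E rose by 0.64 ± 0.03, HLA-G by 1.13 ± 0.07 and the immunoproteasome subunit PSMB9 by 1.06 ± 0.07. The chaperones CALR (-0.00 ± 0.03) and CANX (0.01 ± 0.03) did not pass. HLA genes are close paralogs, and the counting could have split their reads.

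Of 33 interferon response genes, 12 were called higher and 4 lower (median 0.23). The scramblase PLSCR1 stood at 41.7 and 41.6 CPM in sgEZH2, against 21.5 and 20.2 CPM in sgEV (log2 fold change 1.00 ± 0.06, adjusted p = 2.7e-10) and the helicase DDX60 at 16.9 and 14.1 CPM in sgEZH2, against 4.17 and 4.49 CPM in sgEV (1.84 ± 0.11). GBP2 rose by 1.01 ± 0.10 and LGALS3BP by 1.49 ± 0.15. The antiviral membrane proteins of the IFITM family went the other way. IFITM1 stood at 15.9 and 15.7 CPM in sgEZH2, against 34.3 and 32.6 CPM in sgEV (log2 fold change -1.08 ± 0.06, adjusted p = 4.4e-10), and IFITM2 (-0.25 ± 0.04) and IFITM3 (-0.42 ± 0.11), named after their values were seen, fell by less. The fourth fall was EIF2AK2 (-0.34 ± 0.10), the kinase PKR. The 3 IFITM genes are near-identical in places. BST2 (0.03 ± 0.04), HERC5 (0.09 ± 0.05) and PARP14 (0.18 ± 0.07) did not pass.

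Cell cycle genes showed many small falls around 2 large rises. Of 30 inhibitors and G1 regulators, 8 rose and 10 fell (median -0.03). CDKN1A and CCND2 were the rises of at least 2-fold. The kinases CDK6, at 343 and 317 CPM in sgEZH2, against 435 and 416 CPM in sgEV (log2 fold change -0.37 ± 0.04, adjusted p = 1.5e-06), and CDK2, at 55.2 and 53.1 CPM in sgEZH2, against 69.5 and 67.4 CPM in sgEV (-0.34 ± 0.05), fell. GADD45A (0.84 ± 0.10) and the antiproliferative gene BTG2 (0.81 ± 0.12) rose. RB1 (-0.03 ± 0.04) and RBL2 (-0.07 ± 0.04) did not pass. Of 43 proliferation genes, 27 fell and 0 rose (median -0.15), and none by as much as 2-fold. MCM4, a subunit of the replicative helicase, had 639 and 637 CPM in sgEZH2, against 731 and 731 CPM in sgEV (-0.20 ± 0.03), MCM2 had 419 and 419.8 CPM in sgEZH2, against 487 and 481 CPM in sgEV (-0.21 ± 0.03), and the licensing factors CDC6 (-0.31 ± 0.04) and CDT1 (-0.26 ± 0.04) fell with the mitotic regulators FOXM1 (-0.32 ± 0.05) and ESPL1 (-0.33 ± 0.05). MCM7 (-0.06 ± 0.03), PCNA (-0.07 ± 0.03) and TOP2A (-0.08 ± 0.03) did not pass.

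Stem and progenitor genes were mixed, with 6 of 22 higher and 3 lower (median 0.02). SATB1 and IGF2BP2 were the large rises. FLT3, a receptor kinase of progenitors, had 142 and 139.7 CPM in sgEZH2, against 124 and 122 CPM in sgEV (log2 fold change 0.20 ± 0.04, adjusted p = 4.9e-04), and MYB rose by 0.14 ± 0.03, a call lost without sgEV library 2 (adjusted p = 0.17). HOXA11 (0.48 ± 0.10) was lost with DESeq2 (adjusted p = 0.099). HOXA9 did not pass, with 66 and 67.6 CPM in sgEZH2 and 67.4 and 67.3 CPM in sgEV (-0.01 ± 0.04), nor did SOX4 (0.02 ± 0.03) or ZFP36L2 (-0.02 ± 0.03). CDK6, MSI2 (-0.13 ± 0.04) and BCL11A (-0.23 ± 0.06) were the 3 falls, the last 2 named after their values were seen.

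Developmental transcription factors, which are known as typical PRC2 targets, were mostly not measured: 36 of 113 had a row and 34 were tested. Of these, 8 rose and 5 fell (median 0.08), and none of those that rose was abundant. HOXB7 stood at 3.66 and 2.85 CPM in sgEZH2, against 0.841 and 1.15 CPM in sgEV (log2 fold change 1.70 ± 0.25, adjusted p = 4.0e-05) and the neural factor OLIG1 at 2.88 and 2.94 CPM in sgEZH2, against 0.987 and 1.41 CPM in sgEV (1.27 ± 0.24). PAX9 (1.10 ± 0.27) was lost with DESeq2 (adjusted p = 0.15). Among the falls, SOX12 had 30.7 and 31.1 CPM in sgEZH2, against 39.6 and 41.3 CPM in sgEV (-0.39 ± 0.05), and FOXA1 (-0.51 ± 0.13) was lost with DESeq2 (adjusted p = 0.21). OTX1 (-0.76 ± 0.22), IRX5 (-0.26 ± 0.07) and MEIS2 (-0.15 ± 0.05) also fell. DLX1 (-0.06 ± 0.07), ZIC2 (0.03 ± 0.07) and WT1 (-0.09 ± 0.08) did not pass.

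The BCL2 family of apoptosis regulators was split, with 3 of 13 called higher and 3 lower (median 0.09). The proapoptotic BIK stood at 11 and 11.2 CPM in sgEZH2, against 5.96 and 5.53 CPM in sgEV (log2 fold change 0.95 ± 0.10, adjusted p = 1.5e-06) and BMF at 41.8 and 42.9 CPM in sgEZH2, against 31.8 and 33.4 CPM in sgEV (0.37 ± 0.05). BCL2 (0.17 ± 0.05) was lost with library totals only (adjusted p = 0.052), with DESeq2 (adjusted p = 0.072), with limma on the authors' log2 values (adjusted p = 0.088) and without sgEZH2 library 1 (adjusted p = 0.081), and its value was 0.083 without sgEZH2 library 1. BAD (-0.31 ± 0.08) was lost with DESeq2 (adjusted p = 0.2), without sgEV library 2 (adjusted p = 0.1) and without sgEZH2 library 2 (adjusted p = 0.05). BCL2L2 (-0.33 ± 0.11) was lost with DESeq2 (adjusted p = 0.4), with limma on the authors' log2 values (adjusted p = 0.071), without sgEV library 1 (adjusted p = 0.097), without sgEV library 2 (adjusted p = 0.062) and without sgEZH2 library 2 (adjusted p = 0.26), and its value was -0.21 without sgEZH2 library 2. BAX (0.09 ± 0.04) and BID (0.08 ± 0.04) did not pass.

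Members of the S100, annexin and galectin families rose in part. In the S100 family, 4 of 10 rose and 0 fell (median 0.10). S100A9 had 69.8 and 79.2 CPM in sgEZH2, against 23 and 23.7 CPM in sgEV (1.67 ± 0.06) and S100A8, its partner in calprotectin, 98 and 106 CPM in sgEZH2, against 53.1 and 50.4 CPM in sgEV (0.98 ± 0.05). S100A12 rose by 0.87 ± 0.08, and S100B (1.10 ± 0.37), near 1 CPM, was lost with DESeq2 (adjusted p = 0.38), with limma on the authors' log2 values (adjusted p = 0.072), with the replicate block (adjusted p = 0.054), without sgEV library 1 (adjusted p = 0.2), without sgEV library 2 (adjusted p = 0.08) and without sgEZH2 library 1 (adjusted p = 0.27). S100A4 (0.01 ± 0.04), S100A6 (0.17 ± 0.09), S100A10 (-0.19 ± 0.10) and S100A11 (-0.02 ± 0.05) did not pass. Of 12 annexins and galectins, 6 rose and 0 fell (median 0.14). ANXA5 stood at 37.6 and 36.8 CPM in sgEZH2, against 9.36 and 9.96 CPM in sgEV (log2 fold change 1.94 ± 0.07, adjusted p = 2.2e-13), ANXA1, an anti-inflammatory mediator, at 3.21 and 2.69 CPM in sgEZH2, against 0.366 and 0.557 CPM in sgEV (2.66 ± 0.29), and ANXA11 rose by 0.37 ± 0.04. LGALS2 rose by 2.47 ± 0.41, and LGALS1 (0.17 ± 0.04) was 0.11 without sgEZH2 library 2. ANXA6 (0.76 ± 0.20) was lost with DESeq2 (adjusted p = 0.18), without sgEV library 1 (adjusted p = 0.06) and without sgEZH2 library 1 (adjusted p = 0.069). The abundant ANXA4 (-0.07 ± 0.03) and ANXA2 (0.08 ± 0.04) and the galectin LGALS9 (0.02 ± 0.04) did not pass, nor did ANXA7 (0.11 ± 0.04), LGALS8 (0.11 ± 0.05) and LGALS12 (0.07 ± 0.21).

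Markers of other lineages were described in the same way. The B cell genes CD79A, at 5.38 and 6.37 CPM in sgEZH2, against 2.60 and 2.91 CPM in sgEV (1.08 ± 0.15), and EBF1, at 7.51 and 6.74 CPM in sgEZH2, against 4.50 and 3.70 CPM in sgEV (0.80 ± 0.14), rose, IGLL1 fell by 0.27 ± 0.05, and CD79B (0.76 ± 0.33) did not pass. Summed over the B cell list, the level was 50.7 and 52.4 CPM in sgEZH2, against 53.7 and 51.7 CPM in sgEV. NKG7, a granule membrane protein, had 90.1 and 98.4 CPM in sgEZH2, against 112 and 109 CPM in sgEV (-0.23 ± 0.04), and PRF1 (-0.84 ± 0.33) did not pass. The summed level of the T and NK cell list was 90.7 and 99.1 CPM in sgEZH2, against 114 and 110.3 CPM in sgEV. EPOR had 9.19 and 9.72 CPM in sgEZH2, against 14 and 13.1 CPM in sgEV (-0.52 ± 0.09), a fall, and TFR2 (-0.57 ± 0.12) was lost with DESeq2 (adjusted p = 0.099). ITGA2B (1.38 ± 0.61) did not pass. The summed level of the erythroid and megakaryocyte list was 14.7 and 15.4 CPM in sgEZH2, against 21.2 and 21.5 CPM in sgEV. The part of these cell types' markers in the other results was not tested. KIT had 9.41 and 7.94 CPM in sgEZH2 and 9.07 and 9.56 CPM in sgEV and did not pass (-0.10 ± 0.11), nor did the mast cell tryptase TPSAB1 (-0.68 ± 0.43) or the keratin KRT8 (0.36 ± 0.46). The last of the 3 tested mast cell genes, FCER1A, rose from 0 counts in sgEV, as given above. Of the 13 genes encoded in mitochondria, 8 passed the test as higher and 0 as lower (median 0.12, range -0.01 to 0.29). MT-ND2 (0.29 ± 0.03) and MT-ND3 (0.25 ± 0.04) rose under every alternative. The calls of MT-ATP6 and MT-ATP8 were lost without sgEV library 2, and those of MT-ND4, MT-CO2 and MT-CYB without either sgEV library and with limma on the authors' log2 values. That of MT-ND5 was lost under the same alternatives and also without sgEZH2 library 1, with library totals only and with DESeq2. MT-CO2 (0.13 ± 0.04) was 0.082 without sgEZH2 library 2.

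Called genes were next placed along the chromosomes. Of the rows, 12931 matched a RefSeq gene, and the 11160 protein-coding genes tested were put in the order of GRCh38.p14, used for neighbourhood only. Among them 17.1% rose and 13.9% fell. Rises formed 12 runs of at least 5 consecutive tested genes (71 genes), and falls formed 3 such runs (15 genes). The longest run held 12 genes on chromosome 6, from HLA-DRA to HLA-DMA, of which 9 rose by at least 2-fold. It joins class II genes with TAP1 (0.55 ± 0.04), TAP2 (0.46 ± 0.06) and PSMB8 (0.55 ± 0.04), parts of the class I pathway. A run on chromosome 4 joined TMEM192, DDX60, DDX60L and SH3RF1 among 7 genes. One on chromosome 7 ran from GNG11 through PON2 (4.18 ± 0.29) to SLC25A13 (0.19 ± 0.06), with very unequal rises, and another on that chromosome began with ZYX (0.45 ± 0.04) and held TCAF1 (3.26 ± 0.14). These genes were named after the runs were seen. By class, 6.55% of 412 long noncoding RNAs rose and 3.16% fell, and 5.88% of 731 pseudogenes rose and 1.92% fell. Both classes were thus called less often than protein-coding genes, and the reason was not tested.

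The effect in EOL-1 was then set beside that in MV4;11 with the EZH2 hairpin. A single edgeR fit tested the difference of the 2 effects (EOL-1 minus MV4;11) over 13543 genes, of which 3593 (26.5%) passed, with 1904 more positive and 1689 more negative in EOL-1. In MV4;11 alone 1824 genes rose and 1934 fell. EZH2 itself fell less in EOL-1: in MV4;11 it had 9.75 and 9.70 CPM in shEZH2, against 73.3 and 75.8 CPM in EV (-2.94 ± 0.07), a difference of 1.54 ± 0.09 (adjusted p = 9.1e-09). The lines, the means of depletion and its depth all differ together, and cannot be told apart. Of the 20 genes with the smallest p in EOL-1 (10 in each direction), 17 were tested in both lines and 16 differed between them. They were chosen for their p in EOL-1, so a larger change in EOL-1 was favoured by the choice, and their values are a description.

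LYZ in MV4;11 had 498 and 506 CPM in shEZH2, against 186 and 202 CPM in EV (1.37 ± 0.05), and the difference was 1.67 ± 0.06 (adjusted p = 3.3e-11). CCR2 had 46.2 and 45 CPM in shEZH2, against 29.5 and 30.2 CPM in EV (0.61 ± 0.06, difference 2.33 ± 0.08), and SRGN rose there by 0.36 ± 0.04 (difference 0.91 ± 0.05). In 4 of the genes no change passed the test in MV4;11: FGL2 (0.02 ± 0.07), CDKN1A (0.05 ± 0.06), TIFAB (-0.11 ± 0.06) and CD36 (-0.38 ± 0.14), with differences of 1.73 ± 0.07, 1.59 ± 0.07, 2.48 ± 0.10 and 3.06 ± 0.14. SEL1L3 (-0.71 ± 0.08) and HLA-DRB1 (-1.65 ± 0.16) fell in MV4;11, with differences of 2.43 ± 0.09 and 3.35 ± 0.15. HLA-DRB1, which has close paralogs, stood there at only 3.35 and 4.28 CPM in shEZH2, against 11.4 and 12.6 CPM in EV. HLA-DRA, at 4.84 and 6.86 CPM in shEZH2, against 3.37 and 3.04 CPM in EV, rose in both lines, and its difference did not pass (0.41 ± 0.18, adjusted p = 0.12).

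Among the genes that fell in EOL-1, MAP7 (2.15 ± 0.37), OSR2 (1.45 ± 0.27) and FNBP1 (0.43 ± 0.05) rose in MV4;11. Their differences were -3.28 ± 0.28, -2.56 ± 0.24 and -0.93 ± 0.06. MAP7 and OSR2 were rare there, with MAP7 at 2.30 and 2.33 CPM in shEZH2, against 0.437 and 0.595 CPM in EV. IFITM1 fell in both lines, by less in MV4;11 (-0.24 ± 0.07, difference -0.85 ± 0.10). GPT2 (0.12 ± 0.05) and SRRM2 (0.10 ± 0.11) did not pass in MV4;11, with differences of -0.68 ± 0.06 and -0.64 ± 0.15 (adjusted p = 0.034). MYC, which did not pass in EOL-1, rose in MV4;11 (0.25 ± 0.04), a difference of -0.30 ± 0.04 (adjusted p = 1.2e-04).

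**Figure D5:**
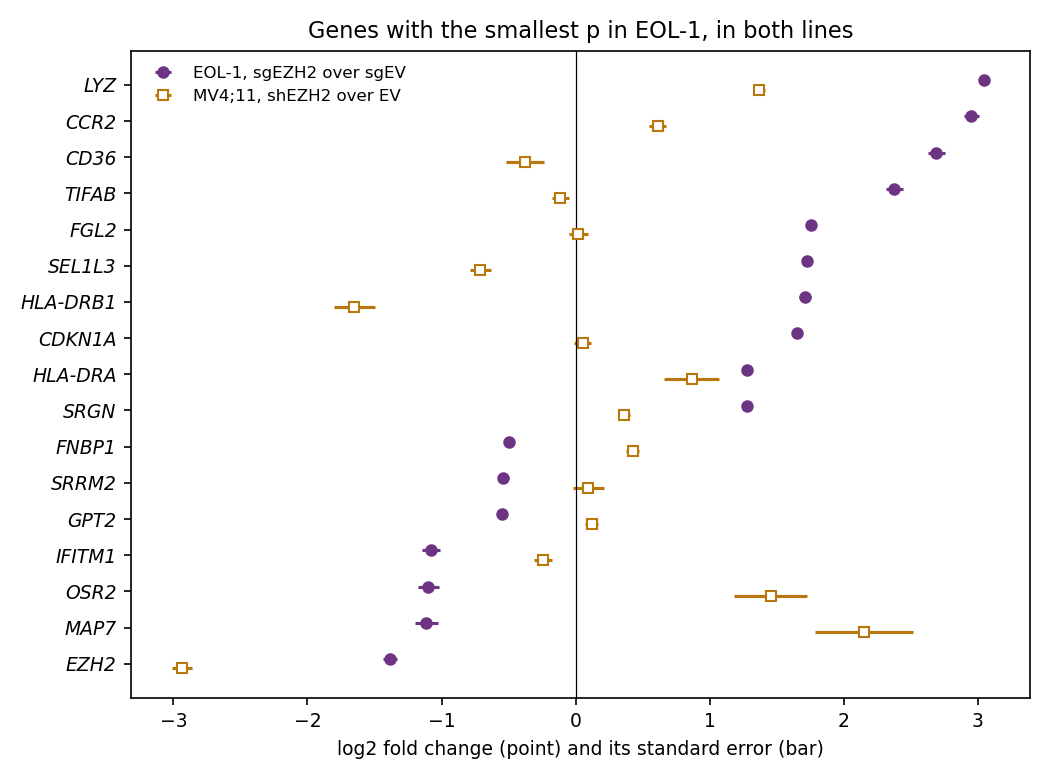
Points give the log2 fold change on EZH2 depletion of the 17 genes with the smallest p in EOL-1 that were tested in both lines, as filled circles for EOL-1 (sgEZH2 over sgEV) and open squares for MV4;11 (shEZH2 over EV), with the standard error as a bar (hidden by the marker where small). Genes run from the largest rise in EOL-1 at the top to the largest fall. LYZ, CCR2, SRGN and HLA-DRA are among those right of 0 in both lines. SEL1L3, HLA-DRB1, MAP7, OSR2 and FNBP1 are among those on opposite sides. CD36 is too, though its change in MV4;11 did not pass the test. EZH2 lies farther left in MV4;11 than in EOL-1.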

How the data were processed

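RNA sequencing of EOL-1 cells (2 sgEZH2 and 2 sgEV libraries) was analysed, with MV4;11 cells (2 shEZH2 and 2 EV) for comparison. Total RNA was made into libraries with a NEBNext Ultra II kit, per the labels' protocols. Estimated counts per gene had been made by the authors, with RSEM, DESeq and the build hg19 named in the submitters' processing notes. The sources used here do not give versions, annotation, strand or any filter on genes. The deposited log2 values, scaled by the authors by a means not stated, served only in an alternative. The mean normalised signal per gene (base mean), also deposited by the authors, was not used further. Columns were matched to samples by group and number in their names. Of the EOL-1 rows, 18 carry dates in place of gene symbols. They were tested but are not named.

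Estimated counts were rounded and tested with edgeR 4.0.16 in R 4.3.3 (filterByExpr, TMM, robust quasi-likelihood fit of the 4 libraries, Benjamini-Hochberg adjustment over all genes tested, threshold 0.05). All adjusted p-values come from this test unless another tool is named. The SE was taken from F, as the absolute log2 fold change over its root. The difference between lines came from 1 fit of 8 libraries. Alternatives were other size factors, other filters, no robust step, DESeq2 1.42.0, limma 3.58.1, a replicate block and leaving out each library. Counting intervals (95%, exact binomial) and the floor of 3 counts cover counting error only.

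The gene lists were chosen with earlier results of these data known. Genes named are EZH2 and MYC; per direction, the 15 called genes with the largest change (higher group averaging 50 or more normalised counts, no overlap between groups, clone names passed over) and the 10 with the smallest p; up to 6 members with the smallest p per list, every tested member of lists of up to 14, and as not called the most abundant members. RefSeq (GRCh38.p14) gave gene order, biotypes and promoter sequences, and no coordinates were converted. A few genes that the rule would name are not reported here.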

Additional observations from a re-analysis of the deposited data

Results flagged for a closer look

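The results listed here are those in which the change on EZH2 depletion differed between EOL-1 and MV4;11, by edgeR's quasi-likelihood test of the difference itself over all genes, among the genes with the smallest p in EOL-1. Values are EOL-1 minus MV4;11 on the log2 scale. Among genes that rose in EOL-1, the difference was 3.35 ± 0.15 for HLA-DRB1, 3.06 ± 0.14 for CD36, 2.48 ± 0.10 for TIFAB, 2.43 ± 0.09 for SEL1L3 and 2.33 ± 0.08 for CCR2. It was 1.73 ± 0.07 for FGL2, 1.67 ± 0.06 for LYZ, 1.59 ± 0.07 for CDKN1A and 0.91 ± 0.05 for SRGN. Among genes that fell in EOL-1, it was 1.54 ± 0.09 for EZH2, which fell more in MV4;11. It was -3.28 ± 0.28 for MAP7, -2.56 ± 0.24 for OSR2 and -0.93 ± 0.06 for FNBP1, which rose in MV4;11. It was -0.85 ± 0.10 for IFITM1, -0.68 ± 0.06 for GPT2 and -0.64 ± 0.15 for SRRM2. The groups hold 2 libraries each, so no library was tested as standing apart within its group.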

How the results depend on the processing

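DESeq2 called 998 genes higher and 646 lower, against 2099 and 1639. Leaving out 1 library gave 1569 to 2022 higher and 1020 to 1942 lower, with the lone library of a group assumed to vary like the other group. The fewest falls came without an sgEV library (1061 and 1020). Other size factors, other filters, no robust step and limma on the authors' log2 values gave 1546 to 2052 higher and 1433 to 2028 lower. With library totals only, 1800 rose and 2028 fell, so 47.0% of the calls were rises in place of 56.2%. With the replicate block 2077 genes rose and 1699 fell. Libraries that share a number deviated in opposite directions (correlation -0.29 over 11153 genes), and with 2 pairs the numbers are not shown to pair them. With the pairs crossed, a choice made after seeing the data, 2199 rose and 1724 fell. The difference between lines was called in 2667 to 3911 genes over the alternatives, against 3593.

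Of 197 genes that the rule named and that were called, 169 kept their call under every alternative that gave them a value, and none of the 197 changed sign. Genes outside the rule, among them falls named after their values were seen, are not in the 197 and had no such check. Many were named for a small p or a large change, so keeping the call was favoured by the choice. DESeq2 lost 20 of the calls, limma 10 and the block 1. With limma on the authors' log2 values, 77 of the 197 values moved by over 1.5 times, all toward 0 (CCND2 to 1.26, HLA-DPA1 to 2.01). The median of the receptor kinase, STAT5 and MAPK genes was -0.0051 with library totals only, and -0.018 to 0.080 over the fits that left out 1 library, with the lowest value without sgEV library 1. That of chemokines and cytokines was -0.061 at a mean of at least 50 counts. That of the 3 mast cell genes was -0.21 to 0.013 over the fits that left out 1 library, with the highest value without sgEZH2 library 2. The cause was not tested. Across lists, 270 recomputed medians stayed within the spread between libraries and 133 moved by more. Depth limits the rarest genes: under 0.5 CPM, small changes were not detectable.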
